A study of Homo sapiens with 18 samples.

Results

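The comparison described here is that of HEK293T cells carrying a poly-adenylate reporter after and before induction of the reporter. It covers 6 of the 18 libraries of the series, 3 from induced and 3 from uninduced cells, chosen by their labels alone. HEK293T is an established human embryonic kidney cell line. The reporter encodes GFP followed by the ribosome-skipping peptide P2A and a poly-adenylate stretch (GFP-P2A-poly-adenylate), under a Tet-inducible promoter in a stable line. Induced cells had received doxycycline for 48 h, at 500 ng/μl as the labels give the dose, and uninduced cells had not. The 6 libraries of a second line, with GFP-P2A-ChFP (the negative control, which ends in a red fluorescent protein), had the same 2 states and are given beside them, since doxycycline was part of induction in both. The effects of doxycycline, of making the reporter and of the poly-adenylate stretch cannot be told apart within the poly-adenylate line. The remaining 6 libraries, of a line with a 102xPR reporter, entered the fit to estimate the spread. Replicates are numbered 1 to 3, with no statement that each is its own culture. The p-values below therefore speak only of the spread from library to library, which may be technical. The reporter transcript itself was not analysed here, so the level of induction is not given. In bulk RNA of this kind, fewer cells of a type and less RNA per cell cannot be told apart.

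A ribosome that translates a run of adenosines makes poly-lysine and slows or stalls, and ribosomes behind it can collide with it. Cells recognise collided ribosomes through sensors such as the ubiquitin ligase ZNF598, split them with rescue factors such as PELO and HBS1L, and mark the unfinished chain for destruction through NEMF and the ubiquitin ligase LTN1, together called ribosome-associated quality control. Collisions can also activate the kinase GCN2, which raises the translation of the transcription factor ATF4. ATF4 then drives genes of amino acid uptake and synthesis, largely by binding, with C/EBP proteins, to composite sites called CARE. The series set the poly-adenylate line beside a line with a poly-PR repeat, to ask whether both kinds of stalling are followed by alike changes in gene expression.

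Promoter windows are shown for 4 genes that changed, as examples from the groups described below: asparagine synthetase (ASNS) and HERPUD1 among the ATF4 targets that were lower after induction, and metallothionein 2A (MT2A) and the zinc exporter SLC30A1, which were higher. Sequences are from RefSeq promoters of GRCh38.p14, on the strand of the gene, and capitals mark matches to CARE (TGATGNAA on either strand) in the first pair and to the metal response element (TGCACNC or TGCGCNC on either strand) in the second.
HERPUD1 (chr16:56931940-56931999, + strand): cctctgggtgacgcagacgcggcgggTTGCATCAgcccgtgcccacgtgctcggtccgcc
ASNS (chr7:97872443-97872502, - strand): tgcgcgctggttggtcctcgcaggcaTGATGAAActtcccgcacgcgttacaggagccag
MT2A (chr16:56608334-56608562, + strand): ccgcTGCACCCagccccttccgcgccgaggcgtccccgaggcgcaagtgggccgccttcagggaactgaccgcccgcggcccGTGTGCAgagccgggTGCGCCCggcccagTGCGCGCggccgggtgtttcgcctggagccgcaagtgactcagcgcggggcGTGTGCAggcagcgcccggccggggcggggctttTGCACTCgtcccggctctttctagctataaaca
SLC30A1 (chr1:211579177-211579236, - strand): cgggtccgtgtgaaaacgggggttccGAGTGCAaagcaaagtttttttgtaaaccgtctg
The matches begin 176 bases before the start site in HERPUD1, 68 in ASNS and 49 in SLC30A1, and the MT2A window holds 6. The letters of the metal response element are not rare, and those of CARE are less frequent. Windows ran from 250 bases before to 50 bases after the start of 12083 tested genes. CARE was present in 1.61% of them, TGCACNC in 11.5% and TGCGCNC in 31.2%. A match on one strand to the first metal response form cannot also match the second there, as they differ in 1 fixed letter. A match is a description of the letters and does not show binding.

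The 6 libraries held 15020739 to 23512647 counts each, and 15447 of 28394 genes passed the filter on low counts. The spread was small, with a biological coefficient of variation, common to all genes, of 5.75% and a median standard error of 0.08 for a log2 fold change. The libraries did not fall apart by group alone. The sign of the second principal component over the 18 libraries separates 10 libraries from the other 8, a division that no label names (called the set of 10 and the set of 8). All 3 induced poly-adenylate libraries and uninduced replicate 1 lie in the set of 10, and uninduced replicates 2 and 3 lie in the set of 8. Between replicates, uninduced replicate 1 differed from replicates 2 and 3 with a chi-square per gene of 12.3 and 17.6, whereas replicates 2 and 3 differed by 1.97 and the induced libraries by 2.53 to 4.89. The markers of embryonic kidney and HEK293 cells summed to 1149 to 1180 CPM (the read count scaled by edgeR to library size, with TMM factors) in uninduced and 1121 to 1202 CPM in induced libraries. Of the markers of other tissues, the neuroblast list summed to 92.1 to 104.3 CPM in uninduced and 103.6 to 107.0 CPM in induced libraries, the fibroblast list to 30.8 to 33.7 and 29.6 to 33.5 CPM, and the epithelial list to 12.5 to 14.9 and 11.5 to 14.2 CPM. GATA2 of the neuroblast list (a mean of 67.6 CPM over the 6 libraries) and COL1A1 of the fibroblast list (21.9 CPM) were well expressed, while KRT5, KRT14, CD3E, APOB, SERPINA1 and PHOX2A had no counts in the 6.

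Induction of the poly-adenylate reporter was followed by small changes in few genes. By the quasi-likelihood F-test of edgeR, adjusted after Benjamini and Hochberg (threshold 0.05), 126 genes rose (0.816% of those tested) and 41 fell (0.265%), 167 in all (1.08%). An unadjusted p under 0.05 was found in 2671 genes (17.3%), the share against which such counts for gene lists below are to be read. The median size of a change was 0.31 on the log2 scale in each direction, or a rise by 23.9% and a fall by 19.1%. Of the 167 genes called, 3 changed by more than 2-fold, and these are named here after their values were seen. Values beyond 2-fold were also found in 127 genes that were not called. The neurofilament gene NEFH rose by 1.51 ± 0.37 on the log2 scale (errors of log2 values are standard errors from the fit throughout) but at under 1 CPM in each of the 6 libraries, LOC105377021 rose by 1.08 ± 0.26, and the antisense transcript TBC1D8-AS1, which unstranded counting could not separate from its partner, fell by 1.24 ± 0.29. In each of the 167 genes the induced and uninduced libraries did not overlap in CPM, which was true of 20.5% of the genes tested, 11.4% with the induced libraries higher and 9.02% with them lower.

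The number of genes called rested on single libraries. Without uninduced replicate 1 the same test called 1241 genes (864 higher, 377 lower). It called 2 genes without uninduced replicate 2, 14 without uninduced replicate 3, 15 without induced replicate 1, and 2 without induced replicate 2 or without induced replicate 3. The collagen receptor gene DDR2 was called in each of these fits. A fit to the 6 poly-adenylate libraries alone called 19 genes, and adding a term for the library set left 13.

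The clearest group among the genes that fell was the ATF4 target list. Of its 47 members, all tested, 15 fell and none rose, or 31.9% of the list against 0.265% of all genes tested. These 15 made up 36.6% of the 41 genes that fell. The median log2 fold change of the list was -0.21, against -0.00 over all genes tested, and 41 of its 47 members were below 0. In the ChFP line 3 members of the list rose and 1 fell, where 1.13% of all genes tested rose and 0.887% fell. The list median there was 0.01.

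Among the transporters, SLC7A11, which takes up cystine in exchange for glutamate, changed most (Entrez 23657, chromosome 4, 138164097 to 138242349, GRCh38.p14). It was at 45.3, 48.4 and 43.9 CPM in the uninduced libraries and at 21.5, 24.7 and 24.9 CPM in the induced ones. Each induced library was thus well below each uninduced one, and the gene fell by 48.1% (-0.95 ± 0.16 log2, adjusted p = 0.0238 in edgeR's test). The glycine transporter SLC6A9 stood at 28.8, 26.9 and 28.2 CPM before and 20.3, 19.7 and 18.04 CPM after induction (-0.53 ± 0.09). The neutral amino acid transporter SLC38A2 went from 218.9, 194.4 and 189.5 CPM to 168.6, 155.2 and 163.9 CPM (-0.31 ± 0.05). For both, the groups did not overlap, and uninduced replicate 1 was the highest of the 6 libraries. SLC7A1, the carrier of arginine and lysine, fell less (-0.24 ± 0.05).

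The enzymes that fell lie in the making of amino acids and one-carbon units. ASNS (Entrez 440, chromosome 7, 97851677 to 97928441), which makes asparagine, was at 176.3, 162.3 and 139.2 CPM in uninduced and 126.3, 120.8 and 120.2 CPM in induced cells (-0.38 ± 0.09, adjusted p = 0.0490). ASNS kept the call in 9 of the 20 alternatives described at the end, with values from -0.52 to -0.30. The call was lost with a GC correction, with a term for the library set and without uninduced replicate 1, among others. CTH, which makes cysteine from cystathionine, fell from 21.6, 20.4 and 18.4 CPM to 16.3, 14.2 and 14.3 CPM (-0.43 ± 0.09). PSAT1 of serine synthesis (-0.29 ± 0.06) and the mitochondrial folate enzyme MTHFD2 (-0.23 ± 0.05) fell by less. In each of the 4 the induced libraries were lower than every uninduced one.

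The regulators on the list included ATF4 itself (Entrez 468, chromosome 22, 39520559 to 39522686). Its transcript was at 914, 771 and 797 CPM in uninduced and 693, 695 and 674 CPM in induced libraries (-0.27 ± 0.06, adjusted p = 0.0309). The induced libraries were nearly level, and the uninduced ones were spread more widely, with replicate 1 the highest. CEBPG, a dimer partner of ATF4, fell by 0.23 ± 0.05 on the log2 scale and the bZIP repressor JDP2 by 0.60 ± 0.14. SESN2, a sensor that restrains mTORC1 when leucine is scarce, stood at 119.8, 89.0 and 87.9 CPM before and 80.5, 73.7 and 73.5 CPM after induction (-0.38 ± 0.09). HERPUD1, which serves degradation at the endoplasmic reticulum, the lipoprotein receptor VLDLR and the chloride channel family gene CLIC4 complete the 15, at -0.33 ± 0.08, -0.52 ± 0.11 and -0.19 ± 0.05.

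**Figure D1:**
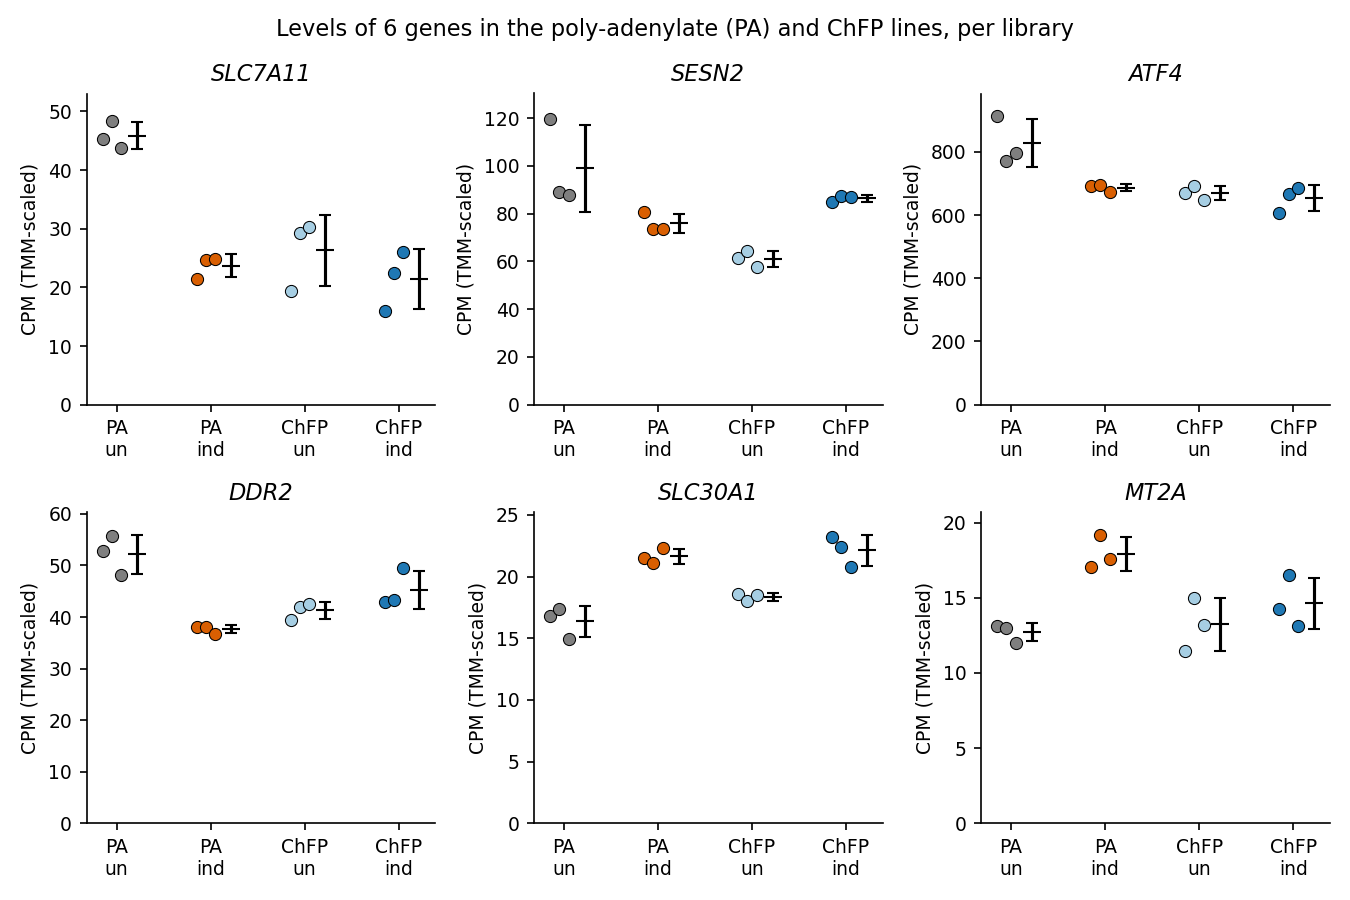
CPM of 6 genes (y axes, from 0) in each of 3 libraries per group of the poly-adenylate (PA) and ChFP lines, uninduced (un) and induced (ind); points are libraries from replicate 1 at the left to 3, and bars are mean ± SD (n = 3). SLC7A11 is at 43.9 to 48.4 CPM in uninduced poly-adenylate cells and at 21.5 to 24.9 CPM after induction.

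Members of the list that did not pass are named after their values were seen. CHAC1, which degrades glutathione, was at 20.98 ± 12.8 CPM (SD, n = 3) in uninduced and 6.91 ± 1.03 CPM in induced cells, a log2 difference of -1.62 ± 0.38 with an adjusted p of 0.0655 in edgeR's test. The stress transcription factors DDIT3 (-0.16 ± 0.17) and ATF3 (-0.23 ± 0.21) and the pseudokinase TRIB3 (0.14 ± 0.10) had wide errors for their size. PHGDH, the first enzyme of serine synthesis, was at -0.04 ± 0.08 and the neutral amino acid transporter SLC7A5 at -0.10 ± 0.08. Among the 19 measured cytosolic aminoacyl-tRNA synthetases, many of which ATF4 also drives, only SARS1 fell in this test (-0.20 ± 0.04), from 279.0, 280.6 and 274.1 CPM to 244.9, 240.2 and 241.0 CPM. The list median was -0.12, and 8 members had an unadjusted p under 0.05. DESeq2 called 5 of the 19 lower, and leaving out uninduced replicate 1 gave 4. Over all genes these fits called 129 of 15447 and 377 of 15682 lower.

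The uninduced poly-adenylate cells stood above the uninduced cells of the other lines in ATF4 targets, and the induced ones lay nearer to that level. The median level of the 47 genes, as a log2 difference from the mean of uninduced ChFP cells, was 0.40, 0.24 and 0.21 in uninduced replicates 1 to 3 and 0.22, 0.09 and 0.05 in induced replicates 1 to 3. On this scale induced replicate 1 and uninduced replicate 3 were at the same level, so the groups overlapped slightly. The 6 ChFP libraries lay between -0.06 and 0.05 and the uninduced 102xPR libraries between -0.03 and 0.05, while the induced 102xPR libraries lay between 0.35 and 0.44. ATF4 itself was at 669 ± 22.5 CPM (SD, n = 3) in uninduced ChFP cells, against 827 ± 76.1 in uninduced and 687 ± 11.2 in induced poly-adenylate cells. The uninduced lines were not tested against each other here.

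**Figure D2:**
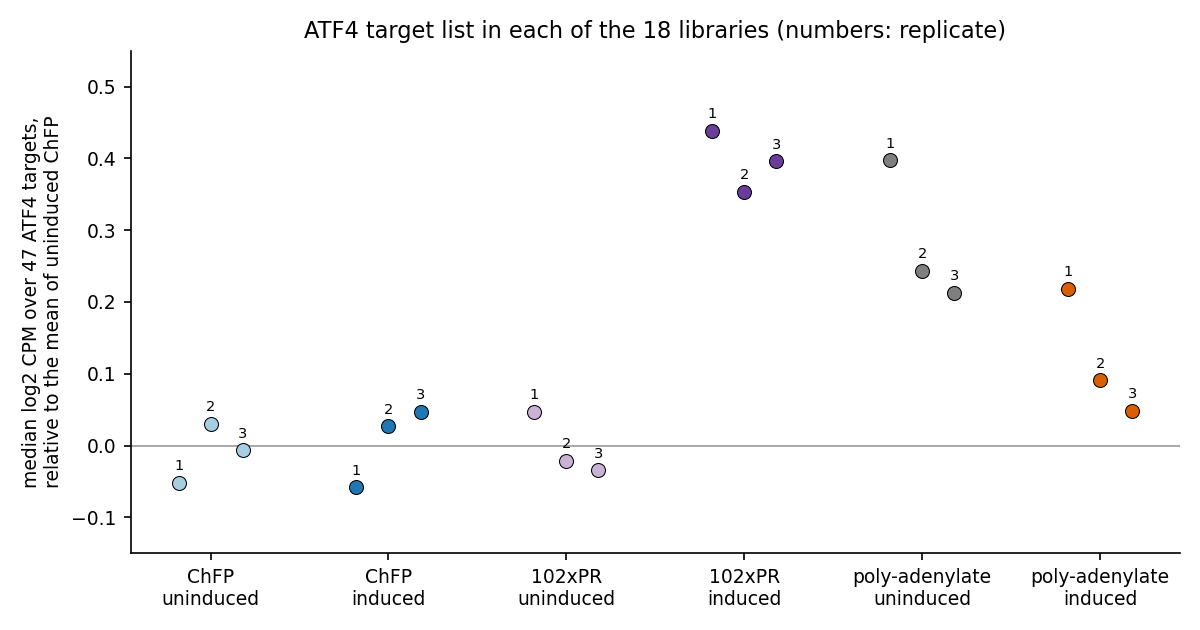
Median over 47 ATF4 targets of log2 CPM relative to the mean of uninduced ChFP cells (y axis) in each of the 18 libraries (x axis, by group; numbers are replicates). Uninduced poly-adenylate libraries are at 0.21 to 0.40 and induced ones at 0.05 to 0.22, and the induced 102xPR libraries are at 0.35 to 0.44.

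The count of ATF4 targets that fell moved with the libraries used, and its direction did not. It was 14 without uninduced replicate 1, where 377 of all 15682 genes tested fell (2.40%). Without uninduced replicate 3 it was 5 and without induced replicate 1 it was 4, beside 10 and 7 of all genes. Leaving out uninduced replicate 2, induced replicate 2 or induced replicate 3 gave 0, and each of these fits called only 2 genes lower in all. The count was 2 of 46 with only the 6 poly-adenylate libraries and 8 with a term for the library set, beside 7 and 11 of all genes. Within the set of 10, where only uninduced replicate 1 remains on that side, the list median was -0.31. In each of the 20 alternatives no member rose and the list median was between -0.31 and -0.17.

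In the promoters, CARE was present in 3 of the 14 ATF4 targets that fell and have a listed promoter (21.4%), among them ASNS and HERPUD1 above and SLC7A1, where it lies just after the start. It was present in 5 of 23 targets that did not pass (21.7%), in 1 of 20 other genes that fell (5.0%), and in 0 of 98 that rose. No test was made of these shares or of those that follow. The metal response forms were present in 11.2% (TGCACNC) and 34.7% (TGCGCNC) of promoters of genes that rose, beside 11.5% and 31.2% of all. Of the other motifs searched on both strands, the ETS site CCGGAAGT was present in 15.3% of promoters of genes that rose and 8.01% of all, the YY1 site AAGATGGCG in 7.14% and 3.63%, and the CCAAT box in 43.9% and 36.2%. The NRF1 site GCGCATGCG (5.10% against 3.59%), the E-box CACGTG (13.3% against 9.95%), the hypoxia response element ACGTGC, which can overlap the E-box (9.18% against 8.70%) and the sterol regulatory element CACCCCAC (2.04% against 2.64%) differed by fewer percentage points. In the 34 promoters of genes that fell, the CCAAT box (50%), the E-box (14.7%) and the hypoxia response element (14.7%) were more frequent than in genes that rose. The sterol regulatory element (2.94%) was too. The ETS site (5.88%) and the YY1 and NRF1 sites (0 of 34 each) were less frequent.

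Outside the ATF4 list, DDR2 gave a firm fall, called in the reported test and in each of the 20 alternatives. DDR2, a receptor tyrosine kinase for fibrillar collagen, was at 52.8, 55.7 and 48.1 CPM before and 38.1, 38.0 and 36.7 CPM after (Entrez 4921, chromosome 1, 162630863 to 162787405). It fell by 27.7% (-0.47 ± 0.06, adjusted p = 0.000766 in edgeR's test), with 0.13 ± 0.06 in the ChFP line. Over the 20 alternatives its value ranged from -0.53 to -0.42 with adjusted p from 7.53e-08 to 0.0240.

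Further genes that fell serve unlike functions. HOXA4, a homeobox factor, fell by 0.51 ± 0.11 on the log2 scale, with uninduced levels of 13.1, 14.9 and 15.1 CPM and induced levels of 11.6, 9.41 and 9.33 CPM, and its ChFP value was alike (-0.57 ± 0.11, adjusted p = 0.0110). The sulfate carrier SLC13A4 fell from 12.9, 13.3 and 13.01 CPM to 9.92, 9.45 and 9.59 CPM (-0.43 ± 0.08), and its ChFP value was -0.31 ± 0.09. TXNIP, an inhibitor of thioredoxin and glucose uptake, stood at 30.8, 22.1 and 22.8 CPM and then at 19.4, 19.0 and 19.2 CPM (-0.40 ± 0.10). In TXNIP the uninduced replicate 1 library was the one far above the others. The phosphatase gene PTPRA (-0.33 ± 0.06) and the prenyltransferase subunit gene PTAR1 (-0.27 ± 0.05) fell with little spread. SLFN5 (-0.58 ± 0.14) and the noncoding GABPB1-IT1 (-0.67 ± 0.16), which lies within another gene and is uncertain without strand, were below 7 CPM.

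The genes that rose were rich in G and C. The median GC content of their longest transcript was 61.3%, against 43.9% for the genes that fell and 48.4% for those not called. Across 14811 genes the log2 fold change rose with GC content (Spearman's rho 0.37, across genes of the same libraries, which are not independent replicates). For each library, the median log2 deviation of the 20% of genes poorest in GC was subtracted from that of the 20% richest. The result was -0.01, -0.15 and -0.11 in uninduced replicates 1 to 3 and 0.17, 0.09 and 0.01 in induced replicates 1 to 3. Uninduced replicates 2 and 3, the libraries of the set of 8, were the lowest of the 6. With a correction for GC content, added after the data were seen, 27 genes rose and 18 fell, 8 of these ATF4 targets. The 15 ATF4 targets that fell had the same median GC content, 43.9%, as the 26 other genes that fell. The part of GC content or of the library sets in these rises was not tested beyond these fits.

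**Figure D3:**
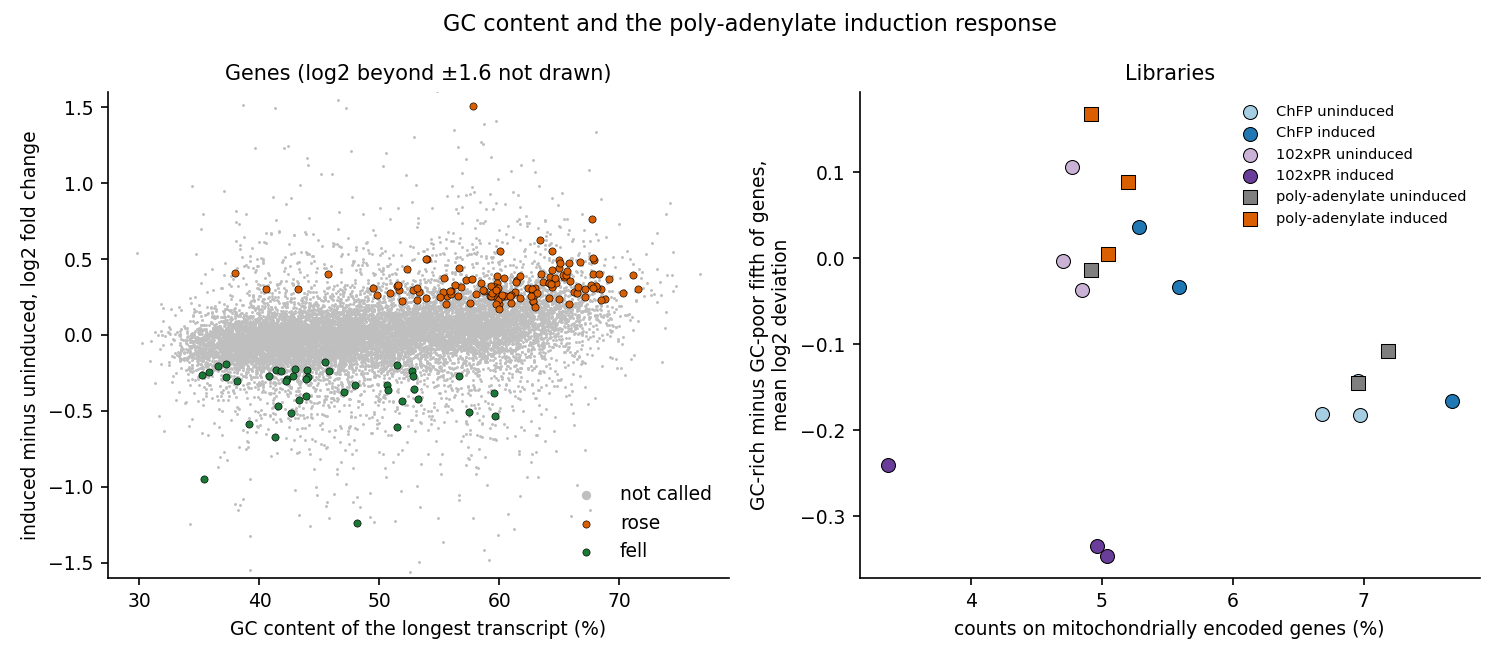
Left, log2 fold change of induced against uninduced poly-adenylate cells (y axis) by GC content of each gene's longest transcript (x axis, percent), with genes that rose, fell or were not called in colour. Right, each of the 18 libraries by the share of counts on mitochondrially encoded genes (x axis, percent). The y axis, labelled as a mean, is the median log2 deviation of the GC-richest 20% of genes minus that of the GC-poorest 20%. Induced poly-adenylate libraries are at 0.01 to 0.17 and uninduced ones at -0.15 to -0.01. The lower uninduced values are those of replicates 2 and 3, with shares of 6.96% and 7.18%.

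By size, the largest rises above the level filter were ENDOG, a mitochondrial nuclease, from 12.8, 9.92 and 10.4 CPM to 18.5, 20.0 and 18.1 CPM (0.76 ± 0.17), and MAFK, a small MAF transcription factor, from 18.5, 14.8 and 14.9 CPM to 25.5, 25.5 and 23.7 CPM (0.63 ± 0.13). Both have GC-rich transcripts, at 67.7% and 63.4%. The next were CCHCR1 and the mitochondrial chaperone cofactor DNLZ (each at 0.55), NOXO1 (0.51), SERTAD1 (0.50), ZNHIT2 (0.49), IER5L (0.49), ESPNL (0.48), the riboflavin transporter SLC52A2 (0.47) and TMEM198 (0.47). With the GC correction ENDOG, MAFK and SLC52A2 kept the call. The others of these largest rises lost it, with adjusted p in edgeR's test from 0.0833 for ZNHIT2 to 0.202 for NOXO1. ESPNL rose in the ChFP line too (0.48 ± 0.12, adjusted p = 0.0420). By smallest p, the circadian factor TEF went from 11.5, 10.1 and 11.7 CPM to 15.2, 14.98 and 15.3 CPM (0.44 ± 0.08). The homeobox gene EN2 went from 115.7, 116.4 and 121.9 CPM to 138.8, 148.3 and 144.1 CPM (0.28 ± 0.05), and the vitamin transporter SLC5A6 from 90.7, 87.1 and 92.3 CPM to 109.8, 109.4 and 111.2 CPM (0.29 ± 0.05). The ubiquitin ligase adaptor ASB6 (0.34 ± 0.06), the Integrator subunit INTS5 (0.39 ± 0.07), PPFIA3 (0.37 ± 0.07) and the germline antigen gene MAGEA3 (0.43 ± 0.08), whose reads can be shared with near-identical copies, complete the group. PPFIA3 lost the call with the GC correction (0.22, adjusted p = 0.0972 in edgeR's test).

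Genes of zinc handling were among those that rose. Of the 5 measured genes of metallothioneins and zinc export, MT2A and SLC30A1 rose and MT1X, MT1F and the zinc-sensing factor MTF1 did not pass the test, where 0.816% of all genes tested rose. MT2A, which binds zinc and other metals (Entrez 4502, chromosome 16, 56608584 to 56609497), was at 13.12, 12.997 and 12.01 CPM before and 17.02, 19.16 and 17.56 CPM after induction (0.50 ± 0.10, adjusted p = 0.0309). SLC30A1, which exports zinc from the cell (Entrez 7779, chromosome 1, 211571568 to 211579161), was at 16.8, 17.4 and 14.9 CPM before and 21.5, 21.1 and 22.3 CPM after (0.41 ± 0.07, adjusted p = 0.0238). The GC contents of the longest transcripts are 53.9% and 38.0%, below the median of the genes that rose. MT1X was at a log2 difference of 0.01 ± 0.10. With the GC correction both were called (0.47 for each), with a term for the library set neither was (0.37, adjusted p = 0.138, and 0.33, adjusted p = 0.0769), and over the 20 alternatives the adjusted p ran from 0.00292 to 0.173 for MT2A and from 0.00105 to 0.153 for SLC30A1. In the ChFP line the values were 0.14 ± 0.10 for MT2A and 0.27 ± 0.07 for SLC30A1 (adjusted p = 0.0543).

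**Figure D4:**
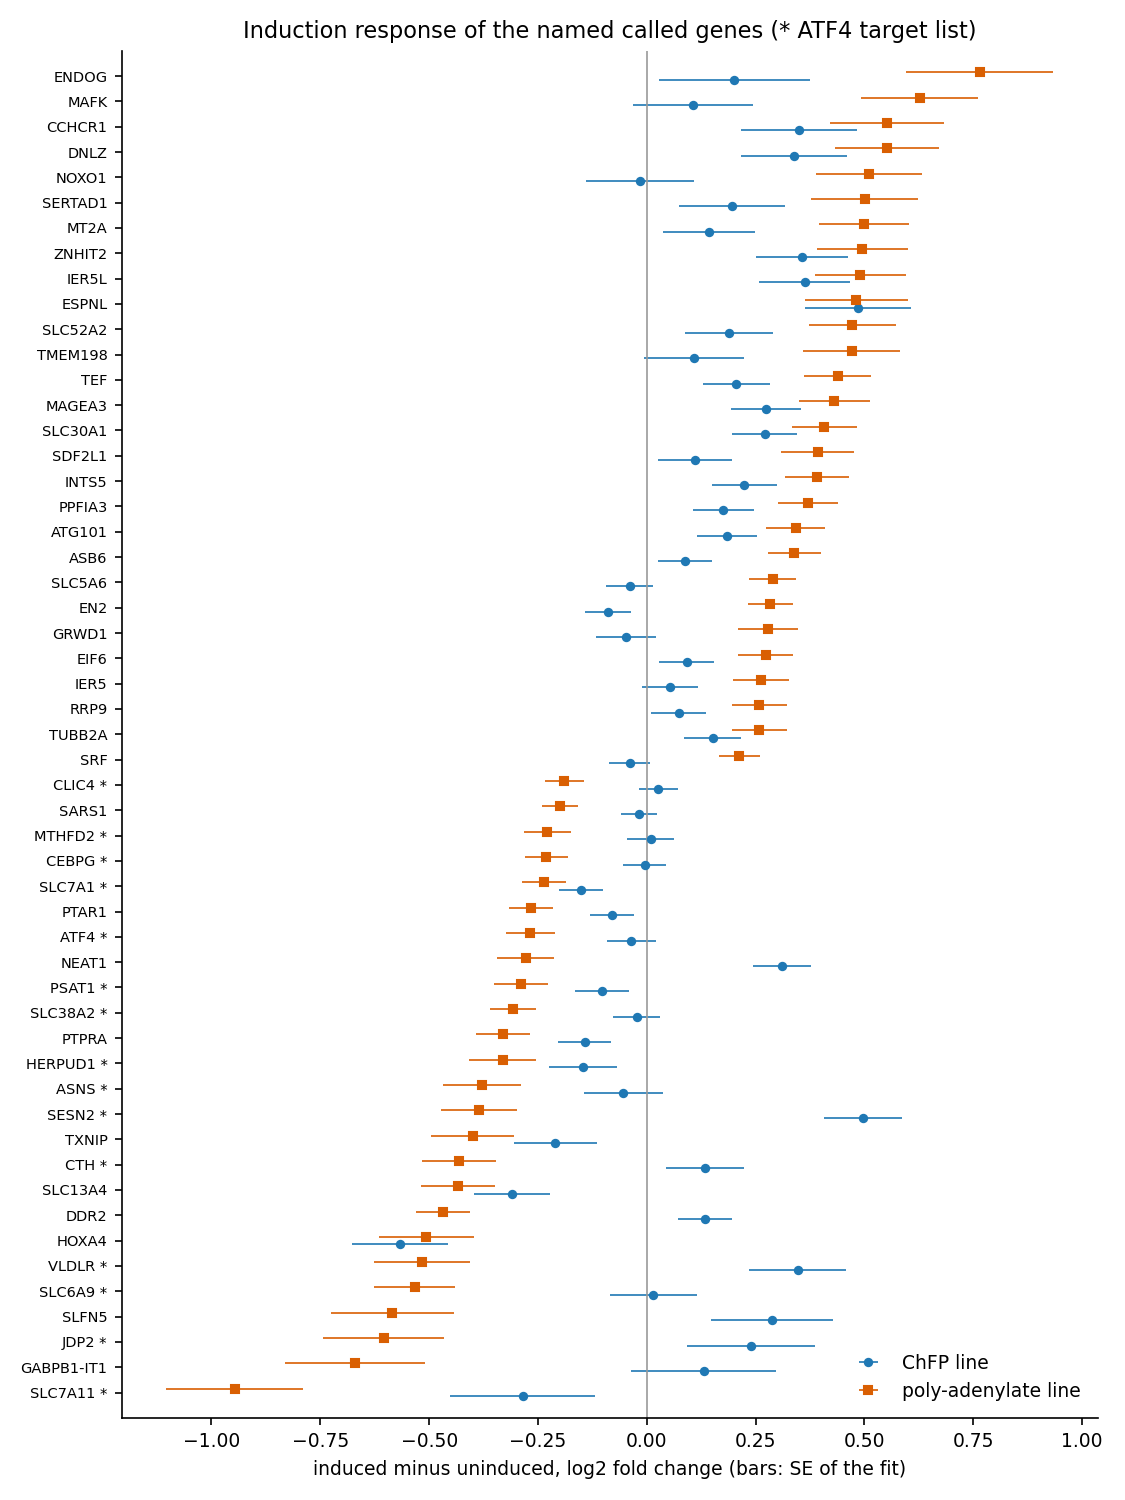
Log2 fold change of induced against uninduced cells (x axis, bars are the SE of the fit) in the poly-adenylate line (squares) and the ChFP line (circles) for named genes called in the poly-adenylate line (y axis; NEFH, at 1.51, is left out and stars mark ATF4 targets). SESN2, NEAT1, DDR2 and VLDLR are the genes whose values lie apart in a test of the difference, from -0.52 to -0.28 in the poly-adenylate line and from 0.13 to 0.50 in the ChFP line.

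No gene of the lists that act on stalled ribosomes passed the test. Only 1.08% of all genes tested were called, so lists as short as these could hold no call at that share alone. The same holds for the list of poly(A) factors below. Of 22 measured sensors and ligases of collided ribosomes none was called, and 1 had an unadjusted p under 0.05 in edgeR's test. ZNF598, the ligase that marks collided ribosomes, was at 151.2, 155.0 and 170.5 CPM in uninduced and 166.4, 185.2 and 175.7 CPM in induced libraries (0.14 ± 0.05, 95% interval 0.04 to 0.25, adjusted p = 0.156), with groups that overlapped. EDF1, which binds collided ribosomes, was at -0.06 ± 0.05, its partner GIGYF2 of translational repression at -0.08 ± 0.05 and EIF4E2 at 0.08 ± 0.05. The ribosomal scaffold RACK1 was at -0.02 ± 0.04, the collision kinase MAP3K20 at -0.05 ± 0.05, GCN1 at 0.01 ± 0.05 and the ligase CNOT4 at -0.18 ± 0.11. Over this list the log2 values ran from -0.18 to 0.14, and the 95% intervals of its members lay within -0.40 and 0.25.

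Of 8 measured rescue and decay factors none was called and 1 had an unadjusted p under 0.05. PELO, which opens stalled ribosomes, was at 38.0, 37.2 and 37.2 CPM before and 40.6, 41.2 and 42.4 CPM after induction (0.14 ± 0.06, adjusted p = 0.206). Its groups did not overlap, as in 11.4% of all genes tested. Its partner HBS1L was at -0.08 ± 0.05 and the recycling factor ABCE1 at 0.04 ± 0.06. Of 12 genes of nascent chain clearance none was called and 2 had an unadjusted p under 0.05. NEMF stood at 53.8, 60.2 and 60.9 CPM and then at 50.3, 54.2 and 56.2 CPM (-0.12 ± 0.06), and the ligase LTN1 at 61.1, 67.1 and 61.9 CPM and then at 61.7, 59.1 and 62.5 CPM (-0.05 ± 0.05). Both overlapped between groups. The segregase VCP was at 0.13 ± 0.05 and its cofactor NPLOC4 at 0.14 ± 0.04. NPLOC4 was the 1 member of these 3 lists that DESeq2 called (0.13, adjusted p = 0.0447), beside 391 of all 15447 genes that DESeq2 called higher.

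Of 35 measured genes that bind or trim poly(A) tails none was called and 8 had an unadjusted p under 0.05, beside 17.3% of all genes tested. PABPC1, the main cytoplasmic poly(A) binding protein, was at 931.7, 1028 and 1059 CPM in uninduced and 835.3, 849.5 and 855.7 CPM in induced libraries (-0.25 ± 0.07, adjusted p = 0.0893), and its ChFP value was -0.20 ± 0.07. BTG2, which recruits deadenylases, was at 37.8, 35.1 and 35.3 CPM and then at 50.8, 44.7 and 42.0 CPM (0.34 ± 0.10, adjusted p = 0.109). In both genes the groups did not overlap, and DESeq2 called both (adjusted p = 0.0319 and 0.0310). Over all 15447 genes DESeq2 called 391 higher and 129 lower. The nuclear PABPN1 was at 0.27 ± 0.13 and the deadenylase scaffold CNOT1 at -0.17 ± 0.10. PARN was at 5.90 CPM in uninduced replicate 2 and at 1.36 CPM or less in the other 5, so its value (-1.72 ± 1.76) is uncertain. Without uninduced replicate 1, 1 member of the list was higher and 3 were lower at the threshold. Of all 15682 genes then tested, 864 were higher and 377 lower.

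The share of counts on the 37 mitochondrially encoded genes was 4.92%, 6.96% and 7.18% in uninduced replicates 1 to 3 and 4.92%, 5.20% and 5.05% in induced replicates 1 to 3. Uninduced replicate 1 was at the level of the induced libraries, so the groups overlapped. The means were 6.35 ± 1.25% and 5.06 ± 0.14% (SD, n = 3), a difference of -1.30 percentage points (exact permutation test, 2-sided p = 0.4, where 3 against 3 cannot go below 0.1). Over the 18 libraries the share was 4.96% to 7.67% in the set of 8 and 3.37% to 5.59% in the set of 10, ranges that overlap. In the poly-adenylate line only uninduced replicate 1 parts the set from induction, and the part of each in the share was not tested. None of the 13 mitochondrial mRNAs was called, and 2 had an unadjusted p under 0.05. Their median log2 value was -0.31. MT-CO1, of the cytochrome oxidase, was at 8770, 12164 and 12907 CPM before and 8517, 8816 and 8838 CPM after induction, and MT-ND6, of complex I, at 882, 1356 and 1383 CPM and then at 835, 839 and 823 CPM. In both, uninduced replicate 1 was near the induced libraries and replicates 2 and 3 were high. DESeq2 called none of the 13.

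Of the other lists few members were called. In the immediate early genes IER5 (0.26 ± 0.06) and IER5L (0.49 ± 0.10) rose, 2 of 30 measured beside 0.816% of all genes tested, while FOS (0.05 ± 0.46), EGR1 (0.12 ± 0.41), JUN (-0.02 ± 0.10) and MYC (-0.12 ± 0.10), named after their values were seen, did not pass. On the list of the endoplasmic reticulum's unfolded protein response SDF2L1, a chaperone cofactor, rose from 90.2, 74.8 and 80.7 CPM to 106.8, 112.3 and 103.9 CPM (0.39 ± 0.08), as 1 of 28 members. The chaperone HSPA5 was at 0.15 ± 0.05 (adjusted p = 0.143). RRP9 (0.26 ± 0.06) and GRWD1 (0.28 ± 0.07) rose among 66 ribosome biogenesis genes, EIF6 (0.27 ± 0.06) among 46 translation factors, ATG101 (0.34 ± 0.07) among 40 autophagy and lysosome genes, and SRF (0.21 ± 0.05) and TUBB2A (0.26 ± 0.06) among 32 cytoskeletal and SRF target genes. These counts of 1 or 2 members a list also stand beside the 0.816% of all genes that rose.

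The edgeR test called no member among 78 cytosolic ribosomal proteins (11 with an unadjusted p under 0.05, which 17.3% of all genes had), 75 mitochondrial ribosomal proteins (25), 74 subunits of the respiratory chain encoded in the nucleus (20), 37 proteasome subunits (11), 26 genes of cholesterol synthesis (8) or 21 cytosolic heat shock genes (7). DESeq2 called 1, 8, 3, 1, 0 and 2 members of these lists, each of them higher, where it called 391 of all 15447 genes higher. No call was made by edgeR among 47 genes of G1/S (7 with an unadjusted p under 0.05), 44 of G2/M (9), 17 of the interferon response (1) or 27 p53 targets. DESeq2 called 0, 1, 0 and 1. Without uninduced replicate 1, 3 of the p53 targets were called higher, as were 864 of all 15682 genes then tested. The p53 targets had a median of 0.16, with 24 of 27 above 0, and 5 had an unadjusted p under 0.05. CDKN1A, the cell cycle inhibitor, was at 44.5 ± 11.4 CPM (SD, n = 3) before and 62.2 ± 15.6 CPM after induction (0.47 ± 0.28). In the ChFP line 15 of the 27 rose, with a median of 0.59, where 1.13% of all genes tested rose. The median difference between lines, poly-adenylate minus ChFP, was -0.39, and none of the 27 passed the test of that difference. NRF2 targets had 1 call of 24, SLC7A11, which is also on the ATF4 list.

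Where the response differed from that of the control reporter was tested in the same fit. The ChFP line had 311 genes called (2.01%), 174 higher (1.13%) and 137 lower (0.887%). The difference of the responses, poly-adenylate minus ChFP, was called for 4 genes (0.0259%), all lower, and its median standard error over genes was 0.12. DDR2 differed by -0.60 ± 0.09 log2 (adjusted p = 0.00765 in edgeR's test), going from 41.3 ± 1.71 CPM (SD, n = 3) in uninduced ChFP cells to 42.9, 43.4 and 49.6 CPM in induced ones. SESN2 differed by -0.88 ± 0.12 (adjusted p = 0.00859), since it rose in the ChFP line from 61.3, 64.4 and 57.8 CPM to 84.8, 87.3 and 87.1 CPM (0.50 ± 0.09, adjusted p = 0.00940). NEAT1, the noncoding RNA scaffold of paraspeckles, differed by -0.59 ± 0.09 (adjusted p = 0.0108). It was at 164.6, 132.9 and 140.2 CPM before and 116.5, 122.0 and 122.9 CPM after induction in the poly-adenylate line (-0.28 ± 0.07), and at 99.3, 105.3 and 109.6 CPM and then 127.8, 128.6 and 133.0 CPM in the ChFP line (0.31 ± 0.07, adjusted p = 0.0192).

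VLDLR differed by -0.86 ± 0.16 (adjusted p = 0.0492), at 14.6, 13.9 and 11.9 CPM before and 10.4, 9.62 and 8.19 CPM after induction in the poly-adenylate line and 8.78, 10.95 and 9.85 CPM and then 10.98, 12.85 and 13.8 CPM in the ChFP line. In SESN2 the uninduced poly-adenylate libraries were the highest 3 of these 12, and in the other genes they overlapped with induced ChFP libraries. SESN2 and NEAT1 kept the call in each of 19 alternatives, DDR2 in each of the 18 that gave an adjusted p, and VLDLR in 10 of 18. VLDLR lost it without uninduced replicate 1, uninduced replicate 2, induced replicate 2 or induced replicate 3, with values over the alternatives from -0.95 to -0.77 and adjusted p from 2.40e-06 to 0.170. For the ATF4 list as a whole the median difference was -0.23 with 2 members called, SESN2 and VLDLR, both among the 4. The p53 targets had a larger median difference, -0.39, with none called. For SLC7A11 the difference was -0.66 ± 0.23 (95% interval -1.11 to -0.21) and for ATF4 -0.23 ± 0.08 (-0.39 to -0.08), neither of which passed. For MT2A it was 0.35 ± 0.15 (0.07 to 0.64), which did not pass either.

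**Figure D5:**
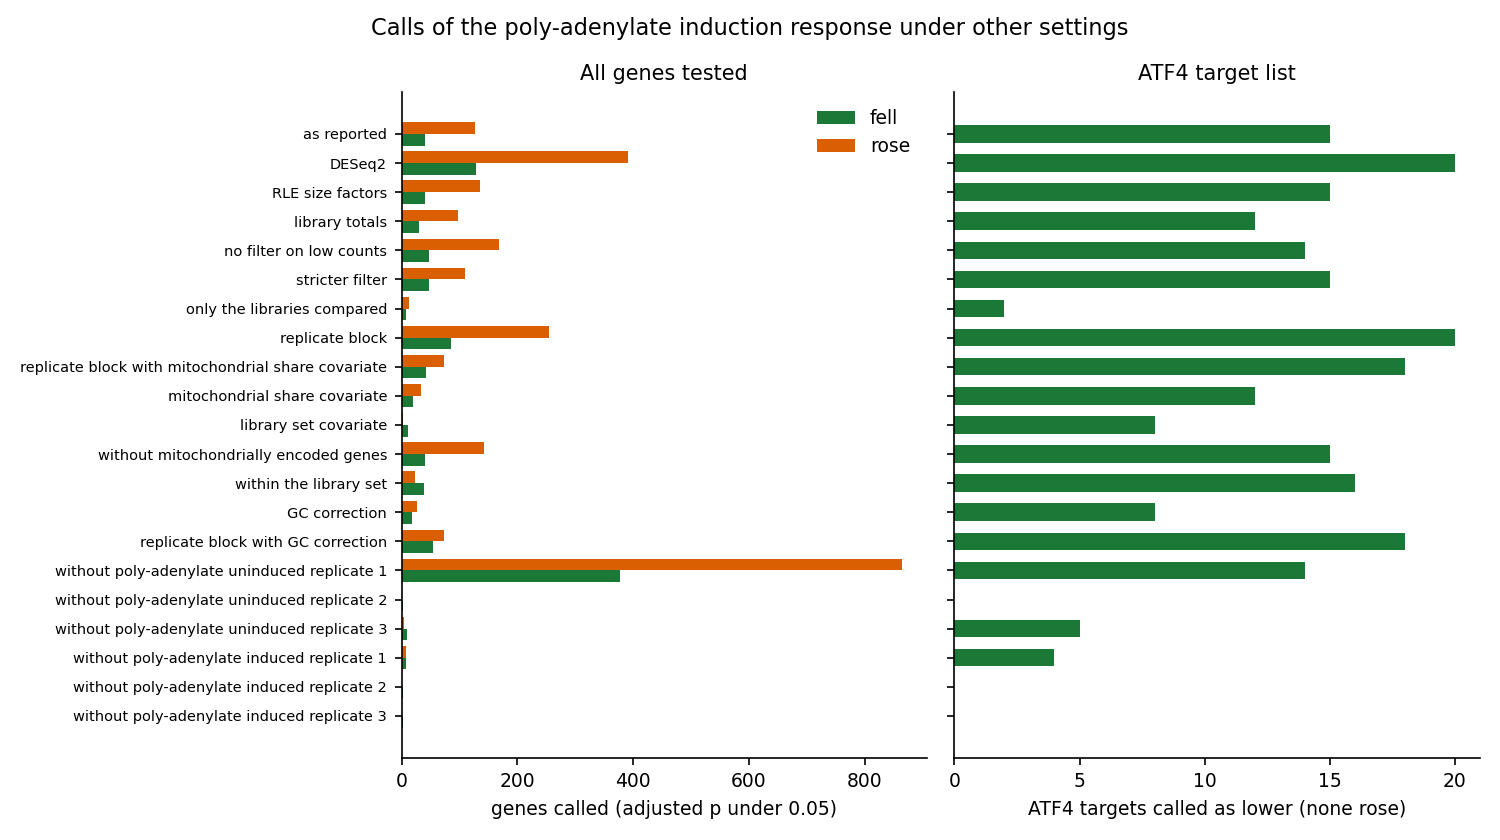
Number of genes called as higher or lower after induction in the poly-adenylate line (left) and of ATF4 targets called as lower (right; x axes, counts from 0) for the reported test and 20 alternatives (y axis). The calls range from 2 to 1241 in all genes and from 0 to 20 in the ATF4 targets.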

How the data were processed

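Cells were lysed in Triton X-100 buffer that held cycloheximide, and RNA came from this lysate after centrifugation, per the labels' protocols. Poly(A)-selected libraries were read as 100 base single reads. The values used are the authors' deposited raw counts, 1 column per library. Per the submitters' processing notes the build was hg38 and the tools included featureCounts, HISAT2 2.1.0, cutadapt 3.4, bcl2fastq 2.20.0.422 and DESeq2 1.30.1. No source used here gives the gene annotation or the strand setting, which leaves values of antisense, overlapping or near-identical genes uncertain. The authors' deposited tables of comparisons were not used.

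From the counts, edgeR 4.0.16 (R 4.3.3) was run with filterByExpr (minimum count 10), TMM scaling and a robust quasi-likelihood fit over all 18 libraries with 1 term per group. Benjamini-Hochberg adjustment ran over the 15447 genes tested, with a threshold of 0.05. Of the genes in the table, 550 had no symbol (0.0410% of counts) and were kept. Intervals are 95%, at 1.96 SE. On simulated counts for the induced against uninduced comparison, 49.5%, 67.5% and 84.5% of 200 genes changed by 1.3, 1.5 and 2-fold were recovered, with 4, 4 and 13 false calls among 15447 genes. These numbers describe the simulated counts only. They do not measure how far the real calls rest on single libraries, which gave 2 to 1241 calls when 1 was left out.

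Members and the 39 gene lists were chosen with earlier results of these data known, so no list is independent evidence of its direction. Named genes passed the threshold with a mean log2 CPM of at least 1 and groups that did not overlap: the 12 largest changes and the 8 smallest p each way, every member of 5 lists (collision sensors, rescue, clearance, poly(A) factors, mitochondrial mRNAs), up to 4 called members each way of other lists, and up to 6 called differences each way from the ChFP line. ASNS, HERPUD1, PSAT1, ATF4, SLC7A1, CEBPG, MTHFD2 and CLIC4 fell outside that rule and were chosen after their values were seen, as were list members that did not pass. Coordinates are from RefSeq GRCh38.p14, GC content from the longest GENCODE transcript. The metal response element was chosen after the data were seen. Alternatives covered the tool (DESeq2 1.42.0), scaling, filters, libraries in the fit, a replicate block, covariates and each library left out, and, added after the data were seen, a GC correction and a fit within 1 library set. A gene that meets this rule and some markers are not reported here.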

Additional observations from a re-analysis of the deposited data

Results flagged for a closer look

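In 4 genes the response to induction differed between the poly-adenylate and ChFP lines by the test of that difference in edgeR's quasi-likelihood fit with Benjamini-Hochberg adjustment (4 of 15447 genes, 0.0259%). The values, poly-adenylate minus ChFP on the log2 scale, were -0.60 for DDR2, -0.59 for NEAT1, -0.88 for SESN2 and -0.86 for VLDLR. The share of counts on mitochondrially encoded genes and the library set also moved between the groups of both lines, and their part in these differences was not tested beyond the fits with each as a covariate. With the library set as a covariate the values were -0.60, -0.59, -0.87 and -0.86, all past the threshold.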

How the results depend on the processing

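The counts of genes called depended on the tool, on the libraries that set the spread and on terms for the library sets. DESeq2 called 520 genes (391 higher, 129 lower) and 106 differences from the ChFP response. Without a filter on low counts 11 differences were called. With only the libraries compared, 19 genes were called (12 higher, 7 lower), 15 of them among the 167. With the library set as a covariate 13 were called (2 higher, 11 lower; 214 differences), and with the mitochondrial share as a covariate 54 (34 higher, 20 lower; 258 differences). Within the set of 10, where 1 uninduced library remains and is assumed to vary like the other groups, 62 were called (24 higher), and the difference from the ChFP line could not be fitted as no uninduced ChFP library lies in it. The GC correction left 45 (27 higher, 18 lower). Leaving out 1 poly-adenylate library gave 2 to 1241 genes called, 0 to 864 higher, 2 to 377 lower, and 3 to 8 differences. The difference in mitochondrial share was -0.88 to -2.02 points without 1 library.

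The replicate numbers were not treated as pairs. The deviations of same-numbered libraries correlated at 0.166, 0.026 and 0.139, not all above 0.1, although 6 of 6 libraries correlated best with their own number. A replicate block called 339 genes (254 higher, 85 lower; 52 differences), a block with the mitochondrial share 73 higher genes and 835 differences, and a block with the GC correction 73 higher genes and 65 differences. Of the p53 targets, 0 of which were called in the reported test, the block called 8 higher, and 5 with the mitochondrial share or the GC correction added. Of the synthetases, with 1 call in the reported test, the block called 3 lower. Under the block with the mitochondrial share, 3 genes not called in the reported test turned from negative to called positive values: MT-ND1 (0.20), MT-ND2 (0.31) and MT-ND4L (0.23). The cause of these shifts was not tested. RLE size factors, library totals, the stricter filter and leaving out mitochondrially encoded genes kept the counts of genes that rose and fell within 1.5 times. None of the 59 called genes recomputed reversed in an alternative, and over genes and alternatives 673 values kept the call and 497 lost it.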
